A study of Mus musculus with 24 samples.

Results

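The genes described here are 10 genes of the smooth muscle contractile apparatus, read from the rows with their symbols in the expression table of every library. They are Acta2, Tagln, Cnn1, Myh11, Myl9, Des, Tpm2, Actg2, Lmod1 and Myocd, and all 10 were found among the 23879 genes listed. The 24 libraries hold polyA RNA of endothelial cells and of stromal cells from C57BL/6J mouse bone marrow, with 3 libraries in each of 8 groups. In vitro groups of each cell type were a culture (titled BMEC-Akt1 and BMS-Akt1), a later series kept alone (CC-Alone) and its counterpart kept together with hematopoietic stem and progenitor cells, or HSPC (CC+HSPC). These are called culture, alone and HSPC here. The remaining groups are endothelium and stroma in vivo. All 18 titles of cells kept in vitro carry the name Akt1, a growth factor pathway kinase, and say nothing of what was done to it, whereas the 6 in vivo titles lack it. Each difference between in vivo and in vitro cells is therefore also a difference in that name, and the 2 cannot be told apart. The labels give no sex, passage, pooling or sorting marker, and an age only as the word Young in the column names of endothelium in vivo. Nor do they state whether each replicate is its own animal or its own culture, and the p-values reflect only how far these libraries varied, and that variation may be technical.

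Smooth muscle shortens when myosin filaments pull on actin filaments, and contraction starts when myosin light chain kinase phosphorylates the regulatory light chain. Acta2 and Actg2 encode the smooth muscle actins, Tpm2 the beta-tropomyosin that lies along the actin filament, Tagln (SM22) and Cnn1 (calponin) filament-binding proteins, and Lmod1 a nucleator of actin filaments. Myh11 encodes the smooth muscle myosin heavy chain, Myl9 its regulatory light chain, Des the intermediate filament desmin, and Myocd the coactivator myocardin, which works through serum response factor (SRF). Acta2, Tagln, Tpm2 and Myl9 are also made by myofibroblasts, the contractile state that fibroblasts take up on stiff surfaces, whereas Myh11 is the classical mark of mature vascular smooth muscle. In marrow these genes are best known from the smooth muscle coat of arterioles and from pericytes.

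SRF binds the CArG box, in which an inner run of A and T lies between CC and GG, and the promoters of 4 members are shown because the stroma of these data separated them: Acta2 and Tpm2 were highest in culture, Myl9 and Des in vivo. The RefSeq promoter table (GRCm38.p6) held windows for 6 of the 10 members, namely Acta2, Cnn1, Myl9, Des, Tpm2 and Lmod1, each from 250 bases before to 50 bases after the start. The windows printed lie at chr19:34255324-34255623 on the minus strand for Acta2, chr4:43523505-43523804 on the minus strand for Tpm2, chr2:156775214-156775513 on the plus strand for Myl9 and chr1:75360042-75360341 on the plus strand for Des. This build differs from the mm9 of the expression values, and no position was carried between them. Sequences run 5′ to 3′ along the gene's strand, in lower case, with capitals for each CArG box and each box with 1 inner C or G.
Acta2: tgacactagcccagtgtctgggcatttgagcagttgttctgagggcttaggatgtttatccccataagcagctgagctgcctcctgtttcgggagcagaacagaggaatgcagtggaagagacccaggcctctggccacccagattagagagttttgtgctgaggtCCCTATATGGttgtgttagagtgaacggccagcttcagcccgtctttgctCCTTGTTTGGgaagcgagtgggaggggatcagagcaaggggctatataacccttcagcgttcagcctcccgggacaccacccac
Tpm2: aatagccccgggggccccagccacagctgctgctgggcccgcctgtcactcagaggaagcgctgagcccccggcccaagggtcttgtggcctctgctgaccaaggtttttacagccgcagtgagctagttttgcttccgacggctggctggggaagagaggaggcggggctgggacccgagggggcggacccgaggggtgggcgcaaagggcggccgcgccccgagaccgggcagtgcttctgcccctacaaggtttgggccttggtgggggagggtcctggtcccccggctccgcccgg
Myl9: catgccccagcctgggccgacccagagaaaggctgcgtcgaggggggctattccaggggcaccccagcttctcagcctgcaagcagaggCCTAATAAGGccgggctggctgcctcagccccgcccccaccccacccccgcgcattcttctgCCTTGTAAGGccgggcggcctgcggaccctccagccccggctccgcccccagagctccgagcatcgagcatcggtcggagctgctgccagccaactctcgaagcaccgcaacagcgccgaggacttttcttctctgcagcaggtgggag
Des: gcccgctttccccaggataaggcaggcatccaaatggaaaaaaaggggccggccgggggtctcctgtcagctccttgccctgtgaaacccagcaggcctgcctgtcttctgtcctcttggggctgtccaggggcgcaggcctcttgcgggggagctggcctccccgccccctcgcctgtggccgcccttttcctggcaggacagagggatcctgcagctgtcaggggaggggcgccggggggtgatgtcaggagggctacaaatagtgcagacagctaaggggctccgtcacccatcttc

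The Myl9 window held a full box, CCTAATAAGG, that begins 161 bases before the start, and a box with 1 inner G, CCTTGTAAGG, at 99 bases. The Acta2 window held 2 boxes with 1 inner C or G, CCCTATATGG at 84 bases and CCTTGTTTGG at 34 bases before the start. Neither form was found in the windows of Tpm2, Des, Cnn1 or Lmod1. Both strands were searched, and the boxes did not overlap. Of all 32851 promoter windows of the same length, 1.63% held a full box and 9.98% held a box with at most 1 inner C or G. The TEAD core CATTCC, searched on both strands, occurred in the windows of Acta2 and Lmod1 and in 14.7% of all windows. Boxes thus occurred in 1 member of each pair, and a match is a description, not a bound site.

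Acta2, Tagln, Tpm2 and Myl9 were the abundant members in stroma, while Myh11 stayed below 1 FPKM in every library kept in vitro. The values are FPKM, fragment counts scaled by transcript length and by sequencing depth, so levels can be set side by side between genes. The highest value of any member was 1468 FPKM, for Acta2 in a cultured stroma library, and Tagln was the only member at 1 FPKM or more in all 24 libraries. Myocd never reached 1 FPKM (highest value 0.83) and was listed at 0 in 20 libraries, and Cnn1 and Actg2 did not exceed 5.86 and 8.91 FPKM. Summed over the 10 genes, the level was 2024 to 2286 FPKM in cultured stroma, 626 to 781 in stroma alone, 142 to 260.0 in stroma with HSPC and 403 to 511 in stroma in vivo (510.5 at the highest). In endothelium the sum was 62.1 to 724 in culture, 8.2 to 10 alone, 9.3 to 10.4 with HSPC and 292 to 328 in vivo. An exact 0 in these tables can be a failed estimate, so such a gene is only called listed at 0, and the depth behind the values is unknown. In bulk RNA, fewer cells of a type and less RNA per cell cannot be told apart.

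**Figure D1:**
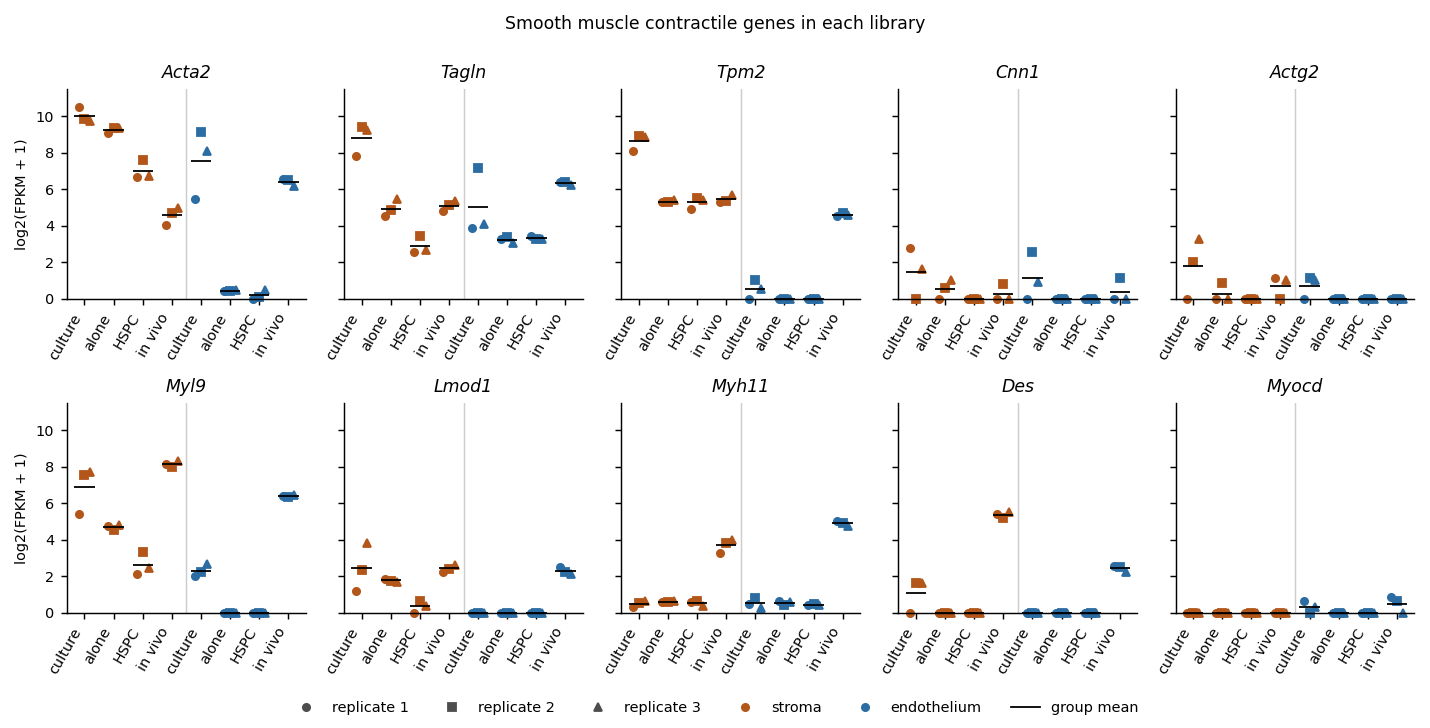
Level of each of the 10 genes as log2(FPKM + 1) (vertical axis) in every library of the 8 groups (horizontal axis), stroma left of the grey line and endothelium right of it. Symbols are the 3 replicates and bars the group means. Acta2 falls from culture to in vivo in stroma, Myh11 and Des rise above 2 on this scale only in the in vivo groups, and Cnn1, Actg2 and Myocd stay low.

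Libraries were uneven within the first cultures. The library totals ran from 1421447 to 1808592 FPKM, and 12447 to 13961 genes reached 1 FPKM. Xist, the X inactivation transcript, stood at 1107 and 1250 FPKM (1249.8) in cultured endothelium replicates 2 and 3 and at 1006 in cultured stroma replicate 3, and at most at 2.35 elsewhere. Cultured stroma replicate 1 stood apart from replicates 2 and 3: the PDGF receptor Pdgfrb was at 58.2 against 752 and 761 FPKM, and fibronectin, Fn1, at 2617 against 23187 and 24517. The endothelial markers Pecam1 and Cdh5 were at 1275 FPKM or more in all 12 endothelial libraries and at most at 5.76 in the 12 of stroma. The stromal marker Lepr was at 2470 to 2789 FPKM (2469.97 at the lowest) in stroma in vivo, but at 15.3 in 1 library of cultured stroma, 0.51 in 1 with HSPC, and listed at 0 in the other 7 stromal libraries kept in vitro.

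Acta2 encodes the actin by which smooth muscle and myofibroblasts are usually recognised. Its values were 1468, 926 and 866 FPKM in cultured stroma, 537, 664 and 664 alone, 103, 194 and 106 with HSPC, and 15.5, 25.4 and 31.2 in vivo. The ranges of these 4 stromal groups did not overlap. Endothelium gave 43.9, 571 and 274 FPKM in culture, 0.37, 0.34 and 0.43 alone, 0.01, 0.06 and 0.40 with HSPC, and 95.45, 90.6 and 72.4 in vivo. Over all 8 groups the order was cultured stroma, stroma alone, cultured endothelium, stroma with HSPC, endothelium in vivo, stroma in vivo, endothelium alone and endothelium with HSPC. Cultured endothelium overlapped both of its neighbours in this order, and the last 2 groups overlapped each other.

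Tagln did not follow the same order. It stood at 229, 687 and 603 FPKM in cultured stroma, 22.2, 27.9 and 43.2 alone, 4.95, 9.92 and 5.34 with HSPC, and 27.8, 34.0 and 40.4 in vivo. Stroma alone and stroma in vivo thus overlapped for Tagln, although they lay far apart for Acta2. In endothelium Tagln was at 14.1, 142 and 15.9 FPKM in culture, 8.86, 9.38 and 7.26 alone, 10.04, 8.82 and 8.93 with HSPC, and 84.5, 85.0 and 74.8 in vivo. Only replicate 2 of cultured endothelium exceeded the in vivo range, and the same library had the highest Acta2 of its group.

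Tpm2 was close to a stromal gene in vitro. It stood at 278, 480 and 474 FPKM in cultured stroma (479.6 in replicate 2), 38.3, 38.0 and 42.4 alone, 29.8, 45.5 and 41.5 with HSPC, and 38.6, 40.9 and 51.8 in vivo. The last 3 of these groups overlapped, and cultured stroma lay above them all. In endothelium Tpm2 was listed at 0 in all 6 libraries of the later series, at 0, 1.03 and 0.46 in culture, and at 22.8, 24.8 and 22.9 in vivo. Lmod1, the filament nucleator, was low throughout: 1.25, 4.17 and 13.2 FPKM in cultured stroma, 2.66, 2.36 and 2.24 alone, 0, 0.58 and 0.30 with HSPC, and 3.79, 4.35 and 5.26 in vivo. It was listed at 0 in all 9 endothelial libraries kept in vitro and reached 4.73, 3.79 and 3.29 in endothelium in vivo. Cnn1 was at 1 FPKM or more in 5 libraries and Actg2 in 6, with overlapping groups throughout.

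The motor genes and desmin had another pattern. Myh11 lay between 0.20 and 0.75 FPKM in every one of the 18 libraries kept in vitro, against 8.68, 13.4 and 15.1 in stroma in vivo and 31.5, 29.4 and 26.3 in endothelium in vivo. Des was listed at 0 in 16 libraries: it stood at 41.8, 35.0 and 45.0 FPKM in stroma in vivo, 4.84, 4.71 and 3.68 in endothelium in vivo, and 0, 2.15 and 2.16 in cultured stroma. Both in vivo groups lay above every in vitro library for these genes, with endothelium higher for Myh11 and stroma higher for Des. Myl9 stood at 284, 249 and 321 FPKM in stroma in vivo, 41.0, 184 and 213 in cultured stroma, 25.8, 22.3 and 26.9 alone, and 3.33, 9.0 and 4.53 with HSPC. These stromal groups did not overlap. In endothelium Myl9 was at 83.6, 79.5 and 88.4 FPKM in vivo, 3.07, 3.64 and 5.34 in culture, and listed at 0 in all 6 libraries of the later series.

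Several members have close relatives outside muscle, and the share of the smooth muscle form in its family gives a readout that a common scaling of a library does not move. Acta2 made up 14.7%, 11.6% and 11.9% of the summed FPKM of the 6 actin genes in cultured stroma (14.65% in replicate 1), 9.82%, 11.4% and 11.4% alone, 3.70%, 7.24% and 3.92% with HSPC, and 0.456%, 0.560% and 0.550% in vivo. The actin sum itself was 7278 to 10026 FPKM in cultured stroma, 5465 to 5836 alone, 2686 to 2787 with HSPC and 3404 to 5665 in vivo, so the share moved far more than the sum. Myh11 was 2.25%, 4.04% and 3.52% of the 3 myosin heavy chains (with Myh9 and Myh10) in stroma in vivo and 3.17%, 3.18% and 2.16% in endothelium in vivo, against 0.0335% to 0.103% in the 18 libraries kept in vitro. Myl9 was 21.05%, 19.1% and 21.1% of the 3 regulatory light chains in stroma in vivo, but 1.81%, 10.6% and 11.9% in cultured stroma and 1.79% to 2.25% alone. The other 2 light chains, Myl12a and Myl12b, serve non-muscle myosin. Tpm2 was 4.60%, 11.9% and 12.6% of the 4 tropomyosins in cultured stroma (12.55% in replicate 3) and 1.28% to 1.52% in vivo. Tagln was 12.9%, 34.8% and 33.3% of the Tagln and Tagln2 sum in cultured stroma, 4.66% to 7.91% alone, 0.622% to 1.46% with HSPC and 4.43% to 6.52% in vivo. Exact sequence sharing with other genes was small: of all 51-base stretches of the GENCODE M21 transcripts, 0.280% of those of Acta2 occur in another gene (Actg-ps1) and 0.361% of those of Myh11 (Myh9), and none of those of the other 8 members. Only exact matches were counted, so sharing of reads mapped with mismatches was not tested.

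**Figure D2:**
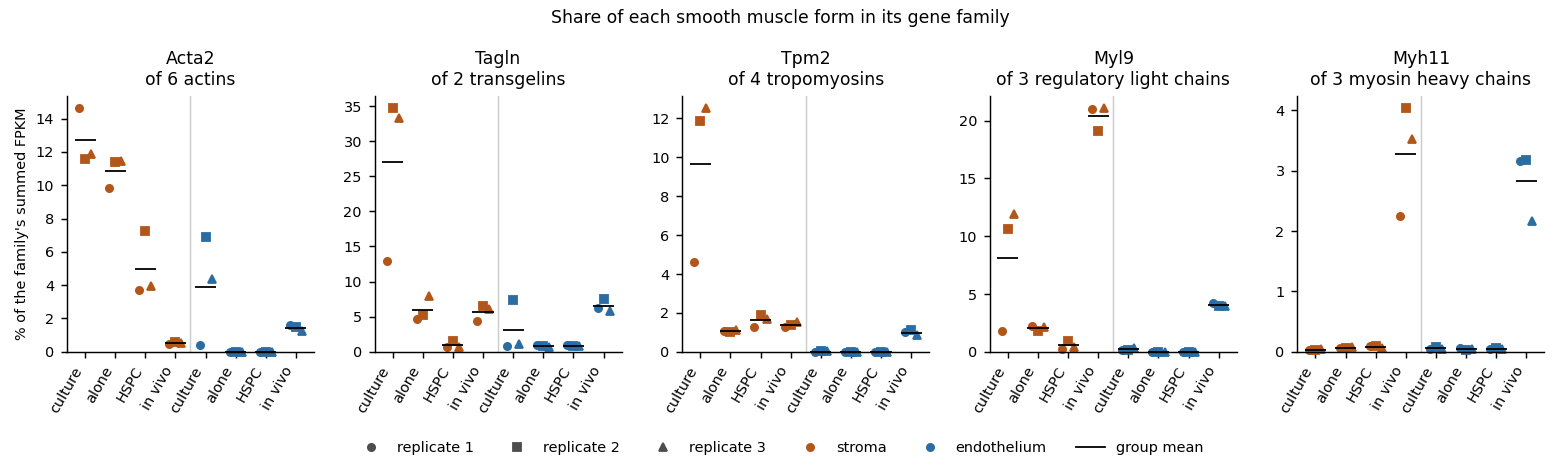
Share of 5 members in the summed FPKM of their gene family (vertical axis, percent, own scale per panel) in every library of the 8 groups (horizontal axis), stroma left of the grey line and endothelium right of it. Symbols are replicates and bars group means. The Acta2, Tagln and Tpm2 shares are highest in cultured stroma, the Myl9 share in stroma in vivo and the Myh11 share in both in vivo groups.

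Stroma in vivo was first set against cultured stroma, to ask which of these genes make up the difference between the 2 settings. The direction divided the list: Acta2, Tagln and Tpm2 were lower in vivo, Myh11 and Des higher. On the log2(FPKM + 1) scale the difference in vivo minus culture was -5.45 ± 0.73 for Acta2 (SE; 24.04 ± 7.90 FPKM against 1087 ± 332, SD, n = 3 each; limma adjusted p = 0.000136). It was -3.72 ± 0.74 for Tagln (adjusted p = 0.00181) and -3.17 ± 0.28 for Tpm2 (adjusted p = 6.95e-06). In the other direction it was 3.22 ± 0.23 for Myh11 (12.4 ± 3.34 FPKM against 0.417 ± 0.160, adjusted p = 1.58e-06) and 4.27 ± 0.38 for Des (40.6 ± 5.12 FPKM against 1.44 ± 1.24, adjusted p = 8.05e-06). So 5 of the 9 members tested passed an adjusted p of 0.05, 2 of them higher and 3 lower, where 55.4% of all 14904 genes tested did (24% higher, 31.4% lower). That share is near the background and says nothing particular of the list, and Myh11 and Des passed the filter on low values only through the in vivo libraries, so their calls add no support to that count. The median over the 9 was -1.05, against -0.15 over all genes.

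Myl9 rose in the means without passing (1.26 ± 0.49, adjusted p = 0.0511), and its groups did not overlap. It passed in 8 of 14 alternatives, among them leaving out cultured stroma replicate 1 (0.52, adjusted p = 0.0375), replicate 2 (1.58) or replicate 3 (1.69), and over all 14 its adjusted p ran from 0.0173 to 0.131. Cnn1 (-1.19 ± 0.76, adjusted p = 0.209), Actg2 (-1.05 ± 0.69, adjusted p = 0.224) and Lmod1 (-0.02 ± 0.51, adjusted p = 0.998) did not pass. Cultured stroma replicate 1 had the highest Acta2 of its group but the lowest Tagln, Tpm2, Myl9 and Lmod1. Without it the differences were -5.22 for Acta2, -4.22 for Tagln, -3.43 for Tpm2, 3.12 for Myh11 and 3.71 for Des, and each of these 5 still passed. Without it Actg2 passed as well (-1.94, adjusted p = 0.00726), and without replicate 2 Cnn1 did (-1.92, adjusted p = 0.0479).

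Stroma alone, from the later series, gave a second in vitro reference with closer replicates, which shares the in vivo libraries with the first. Acta2 was again lower in vivo (-4.68 ± 0.20, adjusted p = 1.02e-09), and Myh11 (3.12 ± 0.16, adjusted p = 5.58e-09) and Myl9 (3.45 ± 0.09, adjusted p = 2.13e-11) were higher. Des was higher too (adjusted p = 2.68e-12), with no fold because it was listed at 0 in stroma alone. Tagln (0.16 ± 0.20, adjusted p = 0.478) and Tpm2 (0.13 ± 0.10, adjusted p = 0.254) did not pass, unlike their comparison with culture. Lmod1 was higher by 0.67 ± 0.13 (adjusted p = 4e-04), but quantile normalization turned it to -0.11. Of 7 members tested, 5 passed (4 higher, 1 lower), against 79.8% of 14973 genes (34.2% higher, 45.6% lower). Myh11 and Des again entered only through the in vivo libraries. Tpm2 passed under trimmed-mean scaling (0.33, adjusted p = 0.00855), and Tagln without stroma alone replicate 3 (0.42, adjusted p = 0.0314), while without replicate 1 its difference was -0.04.

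The 2 in vitro series of stroma differed from each other, most in Tagln and Tpm2. Alone minus culture was -3.88 ± 0.76 for Tagln (adjusted p = 0.00328), -3.30 ± 0.27 for Tpm2 (adjusted p = 1.45e-05) and -2.19 ± 0.50 for Myl9 (adjusted p = 0.00769). Acta2 did not pass (-0.77 ± 0.71, adjusted p = 0.441), although its groups did not overlap. It did pass without the cultured libraries that carry Xist (-0.91, adjusted p = 0.0088). In all, 3 of 7 members tested passed, each lower, against 33.8% of 14071 genes (16.0% higher, 17.8% lower). Without cultured stroma replicate 1, 5 passed, with Actg2 (-2.39, adjusted p = 0.0029) and Lmod1 (-1.33, adjusted p = 0.0121) added. The labels do not say how the series differed.

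In endothelium every member that passed was higher in vivo. In vivo minus culture was 4.38 ± 0.23 for Myh11 (29.1 ± 2.60 FPKM against 0.457 ± 0.277, adjusted p = 3e-07), 4.10 ± 0.49 for Myl9 (adjusted p = 7.91e-05) and 4.09 ± 0.28 for Tpm2 (adjusted p = 1.63e-06). Des (adjusted p = 0.000438) and Lmod1 (adjusted p = 0.00352) were listed at 0 in all 3 cultured libraries and passed as well. Myh11 and Des entered this fit only through the in vivo libraries. Acta2 (-1.15 ± 0.73, adjusted p = 0.209), Tagln (1.31 ± 0.74, adjusted p = 0.161), Cnn1 (-0.79 ± 0.76, adjusted p = 0.407) and Actg2 (adjusted p = 0.408, listed at 0 in vivo) did not pass, with the spread of the cultured libraries as wide as 43.9 to 571 FPKM for Acta2. Leaving out cultured endothelium replicate 1 made Acta2 pass as lower in vivo (-2.20, adjusted p = 0.00111), whereas without the libraries that carry Xist, which leaves 1 library of cultured endothelium assumed to vary like the other groups, its difference was 0.95. Tagln passed without replicate 2 (2.36, adjusted p = 0.00104). The 5 of 9 that passed compare with 53.3% of all genes tested (23.6% higher, 29.8% lower), and trimmed-mean scaling moved the share of higher among all calls from 44.2% to 54%. Genes of other cells were higher in the same in vivo libraries: 8 of 12 platelet genes (summed level 902.5 to 1472.8 FPKM against 37.3 to 355.7), 10 of 12 pan-hematopoietic, all 10 erythroid, 7 of 12 stromal, 6 of 10 osteoblast and 5 of 7 tested adipocyte genes, and their part in the result was not tested. The fit of alone minus culture tested only 7 of the 12 platelet, 6 of the 12 pan-hematopoietic, 0 of the 10 erythroid and 7 of the 10 osteoblast genes. The others of these lists entered here only through the in vivo libraries, so their direction was largely set by the filter. Collagen Col1a1, at 1322 to 2458 FPKM in cultured stroma, was at 0.75 to 2.10 in the 3 cultured endothelial libraries, and Pdgfrb was at most 0.73 there. The summed list of 12 stromal genes was at 1272.5 to 4397.7 FPKM in cultured endothelium and 1540.0 to 3320.0 in cultured stroma. The part of stromal cells in the Acta2 values of cultured endothelium was not tested.

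Against endothelium alone all 7 members tested were higher in vivo, where 77.5% of genes passed (37.4% higher, 40.1% lower). The difference was 5.97 ± 0.20 for Acta2 (86.1 ± 12.2 FPKM against 0.380 ± 0.0458, adjusted p = 1.36e-10), 3.12 ± 0.20 for Tagln (adjusted p = 4.72e-08) and 4.37 ± 0.16 for Myh11 (adjusted p = 3.19e-10). Myl9, Tpm2, Des and Lmod1, listed at 0 in endothelium alone, had adjusted p-values from 2.35e-13 to 9.6e-09. Myh11 and Des entered this fit only through the in vivo libraries, so their calls add no support to the count of 7. Between the in vitro series, endothelium alone was lower than culture for Acta2 (-7.12 ± 0.71, adjusted p = 0.000152) and for Myl9 (adjusted p = 0.00997, listed at 0 alone), 2 of 7 members against 23.2% of genes (8.78% higher, 14.4% lower). Without cultured endothelium replicate 1, 4 passed, with Tagln and Tpm2 added, and without the libraries that carry Xist, with 1 library of cultured endothelium left, only Acta2 did. Tagln (-1.81 ± 0.76, adjusted p = 0.11), Tpm2, Cnn1, Actg2 and Lmod1 did not pass with all libraries, and the last 4 were listed at 0 in endothelium alone.

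**Figure D3:**
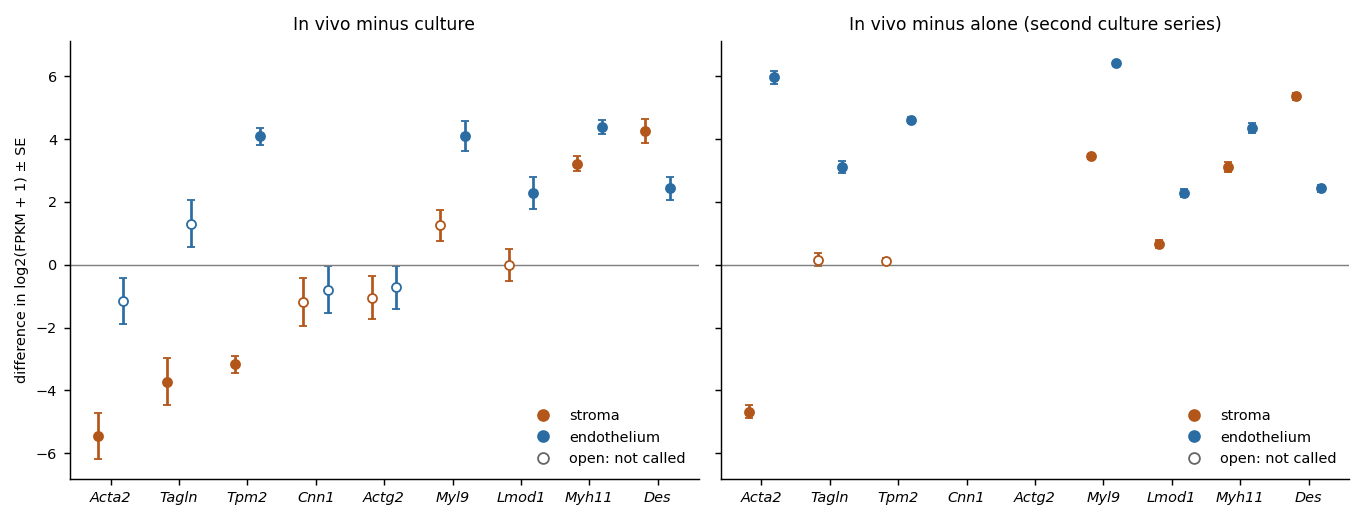
Difference in log2(FPKM + 1) with its SE (vertical axis) for each tested gene (horizontal axis), in vivo minus culture (left) and in vivo minus alone (right), in stroma and endothelium. Filled points passed an adjusted p of 0.05 and open points did not. Acta2, Tagln and Tpm2 of stroma lie below 0 on the left, only Acta2 of stroma does so on the right, and every filled endothelial point is above 0.

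The in vivo to culture difference itself differed between the cell types for most members. The interaction (stroma minus endothelium of in vivo minus culture) was -7.26 ± 0.39 for Tpm2 (adjusted p = 4.56e-07), -5.03 ± 1.05 for Tagln (adjusted p = 0.00424), -4.30 ± 1.03 for Acta2 (adjusted p = 0.00902) and -2.84 ± 0.70 for Myl9 (adjusted p = 0.0104). In all, 7 of 9 members passed (6 lower, 1 higher), against 33.5% of genes (16.4% lower, 17.1% higher). Of these, Myh11 and Des entered the fit only through the in vivo libraries, and Des and Lmod1 were listed at 0 in cultured endothelium. The calls of Lmod1, Myh11 and Des lay near the threshold (adjusted p = 0.0312, 0.0194 and 0.024) and all 3 were lost without stroma in vivo replicate 1, which left 4. Over 19 alternatives Lmod1 lost its call in 10 and Myh11 and Des in 5 each. With a pseudocount of 0.1 Des gave 0.18 (adjusted p = 0.94) and Myh11 -1.22 (adjusted p = 0.143), and with group weights Myh11 had an adjusted p of 0.107. The 4 named first were kept under every alternative run.

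The cell types were also set against each other within a setting. In culture, endothelium was lower than stroma for 6 of 9 members (38.7% of genes passed, 20.1% higher and 18.6% lower), with -8.12 ± 0.28 for Tpm2 (adjusted p = 1.44e-08), -4.59 ± 0.49 for Myl9 (adjusted p = 5.25e-05) and -3.78 ± 0.74 for Tagln (adjusted p = 0.00258). The others were Acta2 (-2.46 ± 0.73, adjusted p = 0.0221), which did not pass without cultured stroma replicate 1 (adjusted p = 0.0535), with group weights (0.0591) or with only the compared groups (0.102), Lmod1 (adjusted p = 0.00357) and Des (adjusted p = 0.0424), both listed at 0 in cultured endothelium. Des lost its call in 8 of 13 alternatives, among them leaving out any single library of cultured endothelium (adjusted p = 0.0773 to 0.0828) and group weights (0.134). In the later series endothelium alone was lower than stroma alone for all 5 members tested, against 83.3% of genes (42.0% higher, 41.3% lower). Acta2 (-8.81 ± 0.21, adjusted p = 2.83e-12), Myl9, Tpm2 and Lmod1 entered that fit only through stromal libraries, so their direction was set by the filter. Myl9, Tpm2 and Lmod1 were listed at 0 in endothelium alone. Tagln, at 1 FPKM or more in every library of the fit, gave -1.71 ± 0.25 (adjusted p = 4.58e-05). In vivo Myh11 was higher in endothelium by 1.20 ± 0.23 (adjusted p = 0.00151), while in culture it gave 0.03 ± 0.23 (adjusted p = 0.973). Des (-2.94 ± 0.38, adjusted p = 9.75e-05), Myl9 (-1.74 ± 0.49, adjusted p = 0.0137) and Tpm2 (-0.86 ± 0.28, adjusted p = 0.0254) were lower in endothelium, so 4 of 9 passed against 49.3% of genes (25.0% higher, 24.2% lower). Tpm2 lost its call without any single endothelial library (adjusted p = 0.0532 to 0.0686) and without stroma replicate 2 or 3. Acta2 (1.84 ± 0.73, adjusted p = 0.0581) and Tagln (1.25 ± 0.74, adjusted p = 0.192) did not pass in this fit, which shares its spread with the cultured libraries, and they passed when only the in vivo groups were fitted (adjusted p = 0.000262 and 9.08e-05).

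Acta2, Tagln and Myl9 were lower in stroma kept with HSPC than in stroma kept alone, and Tpm2 did not pass. With HSPC minus alone was -2.26 ± 0.21 for Acta2 (134 ± 52.0 FPKM against 622 ± 73.6, adjusted p = 3.47e-06), -2.06 ± 0.25 for Tagln (6.74 ± 2.76 against 31.1 ± 10.8, adjusted p = 2.52e-05) and -2.06 ± 0.23 for Myl9 (5.62 ± 2.99 against 25.0 ± 2.40, adjusted p = 1.36e-05). Lmod1 was lower as well (-1.43 ± 0.14, adjusted p = 5.71e-06), having entered the test only through stroma alone. Tpm2 gave -0.04 ± 0.13 (38.9 ± 8.14 FPKM against 39.6 ± 2.45, adjusted p = 0.809). Thus 4 of 5 members tested were lower, where 61.0% of all 14017 genes passed (35.4% lower, 25.6% higher), with a median of -2.06 against -0.04 over all genes. Replicate 2 with HSPC had the highest Acta2, Tagln, Myl9, Tpm2 and Lmod1 of its group, and without it the differences were -2.55 for Acta2, -2.33 for Tagln and -2.41 for Myl9. These 4 calls held under every alternative run in which the gene was tested.

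In endothelium only Tagln was at a level that allowed a comparable test of HSPC. Acta2 was below 0.5 FPKM in all 6 libraries and gave -0.27 ± 0.21 (adjusted p = 0.334), and Tagln gave 0.12 ± 0.25 (adjusted p = 0.764). Myl9, Tpm2 and Lmod1 were listed at 0 with and without HSPC, so none of the 5 members tested by limma passed, also none at an unadjusted p of 0.05, against 48.6% of genes (28.3% higher, 20.3% lower). The interaction (stroma minus endothelium of HSPC minus alone) passed for 4 of 5 members, against 57.0% of genes (21.1% higher, 36.0% lower): -1.99 ± 0.30 for Acta2 (adjusted p = 0.000202), -2.17 ± 0.35 for Tagln (adjusted p = 0.000318), -2.06 ± 0.33 for Myl9 (adjusted p = 0.000271) and -1.43 ± 0.20 for Lmod1 (adjusted p = 0.000125). For Myl9 and Lmod1, listed at 0 in all 6 endothelial libraries, the interaction only restates the stroma difference, so it is no evidence that the cell types differ in response. With a pseudocount of 0.1 the Acta2 interaction no longer passed (-1.05, adjusted p = 0.195). Pan-hematopoietic genes moved with HSPC: their sum rose from 1.3 to 2.4 FPKM in stroma alone to 31.6 to 41.3 with HSPC. Of these genes 11 of 12 were called higher, where 25.6% of all genes were higher and 35.4% lower, and Ptprc was at 0.33 to 0.47. In stroma alone 9 of the 12 were listed at 0 in all 3 libraries, so they could not be called lower. Only 6 of the 12 were tested in the fit of alone minus culture. The others entered here only through libraries with HSPC, so the count cannot be set fairly against the shares over all genes. The summed pericyte list moved too, from 490.5 to 546.0 FPKM alone to 2648.5 to 2896.4 with HSPC, 6 of 8 tested genes higher and 2 lower. Nearly all of that rise in the sum was Ndufa4l2, a mitochondrial protein gene, at 69.9 ± 4.17 FPKM alone and 2141 ± 122.7 with HSPC (4.92 ± 0.06, adjusted p = 1.25e-12). Notch3 was higher too, at 3.08 ± 0.05 FPKM alone and 30.35 ± 13.2 with HSPC (2.86 ± 0.22, adjusted p = 7.57e-07). Cox4i2, listed at 0 alone, was at 11.4 ± 2.62 FPKM with HSPC (adjusted p = 1.73e-09). Rgs5, Kcnj8 and Abcc9 were listed at 0 in both groups. The part of the pan-hematopoietic or the pericyte list in the lower contractile values was not tested.

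**Figure D4:**
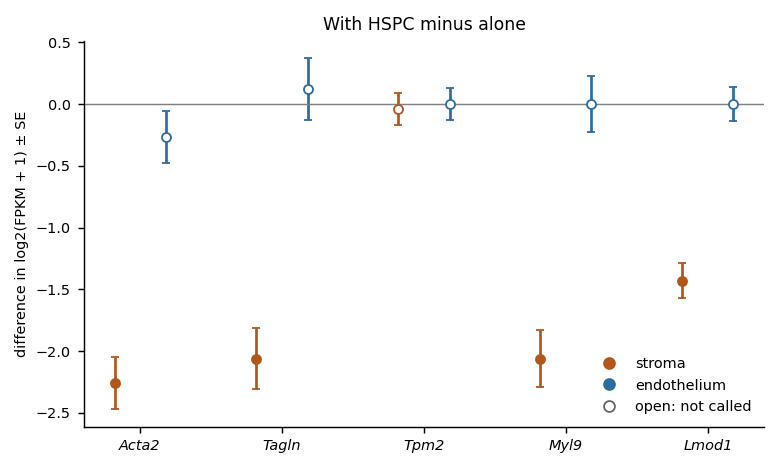
Difference in log2(FPKM + 1) with its SE (vertical axis), with HSPC minus alone, for the 5 tested genes (horizontal axis) in stroma and endothelium. Filled points passed an adjusted p of 0.05 and open points did not. Acta2, Tagln, Myl9 and Lmod1 of stroma lie below -1, and Tpm2 of stroma and all endothelial points lie near 0.

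Other genes of the contractile machinery and its control were read from textbook lists, beside a median over all genes of -0.15 (in vivo minus culture), -0.12 (in vivo minus alone) and -0.04 (with HSPC minus alone). Trimmed-mean scaling moved the first of these medians to 0.05 and the share of higher among all calls from 43.3% to 56.7%, and the second median to 0.03 and that share from 42.9% to 53.1%. Of 22 partner genes (kinase, phosphatase subunits, caldesmon, anchoring proteins), 21 were tested in stroma in vivo minus culture, and 4 were higher and 9 lower (median -0.54). These counts lay near the shares over all genes and are no result about the list. Mylk, which encodes myosin light chain kinase, was at 9.43, 11.03 and 20.9 FPKM in cultured stroma and 225, 210 and 221 in vivo (209.9 in replicate 2), a difference of 3.97 ± 0.63 (adjusted p = 0.000438). Synpo2 (2.74 ± 0.82, adjusted p = 0.016) and Synm, an intermediate filament partner of desmin (2.57 ± 0.35, adjusted p = 0.000169), were higher in vivo as well. Against stroma alone 7 partners were higher and 12 lower (median -0.40), again near the shares over all genes. The largest were Synpo2 (2.92 ± 0.12), Svil, or supervillin (-2.20 ± 0.08), and Mylk (1.66 ± 0.07), with adjusted p-values of 7.2e-10, 1.71e-10 and 8.73e-10. With HSPC, 15 of 20 were lower and 1 higher (median -0.61): Mylk fell by 1.96 ± 0.10 (17.0 ± 3.06 FPKM against 68.5 ± 3.09, adjusted p = 1.89e-08) and Tpm1 by 1.01 ± 0.06 (adjusted p = 7.94e-08), while Pdlim7 rose by 1.35 ± 0.05 (adjusted p = 2.97e-09).

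Non-muscle actin and myosin genes, which build the cytoskeleton of every cell, were more often lower than higher in vivo. Under trimmed-mean scaling 10 were lower and 1 higher against culture, and 8 lower and 5 higher against stroma alone. Against culture 10 of 15 were lower and none higher in stroma (median -1.26), led by Tpm4 (-2.27 ± 0.28, adjusted p = 7.22e-05), Tpm3 (-1.73 ± 0.20, adjusted p = 4.94e-05) and Myh10 (-1.65 ± 0.20, adjusted p = 6.97e-05). Against stroma alone 9 were lower and 2 higher (median -0.53), near the 45.6% of all genes called lower there and no result about the list, with Myh10 at -2.97 ± 0.08 (adjusted p = 2.7e-11), Cnn3, an acidic calponin, at -1.45 ± 0.08 (adjusted p = 1.19e-08), and the actin-sequestering Tmsb4x at 1.08 ± 0.14 (adjusted p = 1.7e-05). With HSPC 10 of 15 were lower and 1 higher (median -0.33), where 35.4% of all genes were lower and 25.6% higher. Cnn2 was at -1.14 ± 0.05 (adjusted p = 4.21e-09), Tmsb4x at -1.11 ± 0.11 (adjusted p = 6.34e-06) and Actg1 at -1.05 ± 0.04 (adjusted p = 5.54e-09). Acta2 and the cytoplasmic actin Actg1 were thus both lower with HSPC, and the Acta2 share of the actins was lower too.

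Regulators of the SRF programme were called in both directions, as all genes were. In both in vivo comparisons of stroma their counts lay near the shares over all genes and are no result about the list. In stroma in vivo minus culture 3 of 14 were higher and 6 lower (median -0.24, or 0.01 under trimmed-mean scaling), and the largest were Heyl, a Notch target listed at 0 in all 3 cultured libraries and at 332, 171 and 230 FPKM in vivo (229.7 in replicate 3), Csrp2 (-4.26 ± 0.57, adjusted p = 0.000134) and Gata6 (-3.84 ± 0.38, adjusted p = 1.63e-05). The same 3 genes led against stroma alone, with Csrp2 at -5.09 ± 0.18 (adjusted p = 1.7e-10) and Gata6 at -2.32 ± 0.18 (adjusted p = 1.83e-07), and there 5 were higher and 8 lower (median -0.67). Singled out after their values were seen, Srf itself was at 60.2, 78.4 and 68.7 FPKM in cultured stroma and 71.0, 89.2 and 120.2 in vivo (0.41 ± 0.17, adjusted p = 0.0702; passing under trimmed-mean scaling with 0.65), while its coactivators Mkl1 (-0.67 ± 0.14, adjusted p = 0.00254) and Mkl2 (-1.26 ± 0.14, adjusted p = 3.99e-05) were lower in vivo. With HSPC 2 of 13 regulators were higher and 8 lower (median -0.28), where 25.6% of all genes were higher and 35.4% lower. Klf4, a repressor of contractile genes in smooth muscle culture, rose from 64.5, 68.3 and 68.4 FPKM to 504, 354 and 502 (2.72 ± 0.11, adjusted p = 3.66e-09), Gata6 rose by 0.74 ± 0.10 (adjusted p = 4.33e-05), and Fhl2 fell by 0.86 ± 0.17 (adjusted p = 0.000966). Srf fell by 0.47 ± 0.04 (adjusted p = 2.08e-06).

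The myofibroblast list did not move with Acta2 as a whole. Against culture, 8 of 20 genes were higher in stroma in vivo and 3 lower (median 1.22): collagen Col1a1 was higher by 4.26 ± 0.39 (adjusted p = 9.08e-06) and Fap by 3.82 ± 0.61 (adjusted p = 0.000473), and the difference for Thy1 was -6.42 ± 0.73 (adjusted p = 4.36e-05). Against stroma alone 11 were higher and 6 lower (median 0.57), where 34.2% of all genes were higher and 45.6% lower. Ctgf was at 5.03 ± 0.11 (adjusted p = 4.18e-12), Fap at 4.52 ± 0.10 (adjusted p = 4.96e-12) and periostin, Postn, at -5.65 ± 0.27 (adjusted p = 2.46e-09). Postn was at 10119, 10463 and 10825 FPKM in stroma alone and at 5.89, 533 and 404 in cultured stroma, so the 2 in vitro groups with the most Acta2 differed widely in it. With HSPC 7 were higher and 7 lower (median 0.13), near the 25.6% of all genes higher and 35.4% lower, and no result about the list. Ctgf was at 1.69 ± 0.17 (adjusted p = 5.12e-06) and Palld, an actin-bundling protein of myofibroblasts, at -1.52 ± 0.04 (adjusted p = 6.75e-11).

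**Figure D5:**
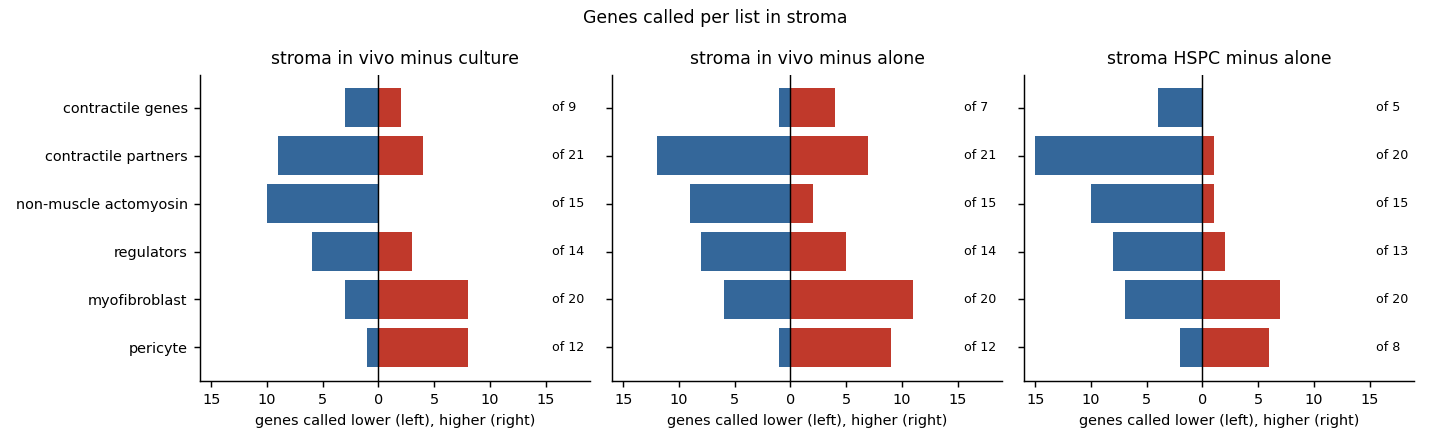
Number of genes called higher (red, right of 0) or lower (blue, left of 0) at an adjusted p of 0.05 (horizontal axis) for 6 gene lists (vertical axis) in 3 comparisons of stroma, with the number tested beside each bar. More partner and non-muscle genes were lower than higher in all 3 comparisons, and so were more of all genes tested. That direction by itself is therefore no result about these lists. More pericyte genes were higher than lower, some of which entered the fit against culture only through the in vivo libraries.

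Markers of cells that carry a contractile coat moved with the in vivo values. Of 12 pericyte genes, 8 were higher and 1 lower in stroma in vivo minus culture, and their sum was 441 to 1126 FPKM in culture and 1641 to 2062 in vivo. In endothelium 10 of 12 were higher and none lower, with sums of 441 to 1260.5 and 5231 to 7180.0 FPKM, where 23.6% of all genes were higher and 29.8% lower. Only 8 of the 12 pericyte genes were tested in the fit of alone minus culture. The others entered here only through the in vivo libraries, so their direction was largely set by the filter. The pericyte marker Rgs5 was at 69.6, 96.1 and 131 FPKM in stroma in vivo and 107, 103 and 117 in endothelium in vivo, and at most 5.31 in the 18 libraries kept in vitro, listed at 0 in 16 of them. Cspg4 was at 51.2 to 83.5 in stroma in vivo and at most 2.94 in endothelium in vivo. How far these cells account for Myh11, Des or Acta2 in vivo was not tested. Of the skeletal muscle markers, Ckm was listed at 0 in 23 libraries and at 1.05 FPKM in 1, Myog was listed at 0 in all 24, and Acta1 was at most 3.90. Of 25 striated muscle genes 11 were tested, and 3 were higher and 2 lower in stroma in vivo minus culture (summed level 26.6 to 41.4 against 87.2 to 125 FPKM), led by Tnni2, at 57.8, 58.5 and 92.4 in vivo and listed at 0 in culture, and Mylpf, at 11.2, 14.7 and 12.9 in vivo and 5.01, 0 and 0 in culture (2.93 ± 0.60, adjusted p = 0.00222). Actc1 went the other way, listed at 0 in stroma in vivo and at 5.27 ± 3.01 FPKM in culture (-2.53 ± 0.31, adjusted p = 7.71e-05). The striated counts lay near the shares over all genes and are no result about the list. The part of striated muscle in the in vivo values was not tested. All 10 erythroid genes were higher in stroma in vivo than in culture, with a summed level of 38311 to 45947 FPKM against 0, and 10 of 12 pan-hematopoietic genes were (147 to 192 against 24.8 to 43.8 FPKM). Of these lists, the fit of alone minus culture tested 0 of 10 and 6 of 12 genes. The others entered here only through the in vivo libraries, so their direction was largely set by the filter and their calls add no support. Platelet genes were called higher for 4 of 12 and lower for 1 (44.2 to 261 against 30.0 to 122). Their higher count lay near the share over all genes and is no result about the list. The part of blood cells in the in vivo values was not tested.

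Finally, the members were compared in profile over the 24 libraries, which share groups and processing, so the values describe these libraries only. The closest pair was Myl9 and Lmod1 (Pearson r = 0.93), followed by Myl9 with Tpm2 (0.83), Myh11 with Des and Tpm2 with Lmod1 (0.79 each). For Acta2 the value was 0.01 with Myh11 and with Des, 0.74 with Tpm2 and 0.64 with Tagln. Over 12942 other genes, the profiles most like the mean of the 10 were those of Arhgap32 (0.954), Cep164 (0.940), Rnase4 (0.939), Mob3a (0.936), Etv1 (0.935), Ilk (0.935), D2Wsu81e (0.930) and Crip1 (0.929). Ilk encodes integrin-linked kinase. For Acta2 the closest was Pcdh7 (0.959), for Tagln Nqo2 (0.919), for Tpm2 Pcdhga7 (0.972), for Myl9 Pdk4 (0.970) and for Lmod1 Ttc38 (0.922). Myh11 was closest to Olfr558 (0.996), Timp4 (0.995) and Gpr1 (0.994), and Des to Bglap (0.989), Slc2a4 (0.989) and Adcy5 (0.987).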

How the data were processed

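The 24 libraries hold polyA RNA taken up in Trizol and sequenced as TruSeq paired reads, per the labels' protocols. The FPKM values were deposited by the authors, who mapped reads to mm9 with TopHat and quantified genes with Cufflinks, per the submitters' processing notes; versions and annotation are not given in the sources used here. The files hold no counts, so depth and its precision are unknown.

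The 23879 genes were read from every file and grouped by title. log2(FPKM + 1) was fitted with limma 3.58.1 (R 4.3.3; lmFit and eBayes with trend) over genes at 1 FPKM or more in at least 3 libraries of the fit. There were 4 fits of 12 libraries and 13 comparisons, several of which share libraries, so their results are not independent. P-values were adjusted by Benjamini-Hochberg across every tested gene, and 0.05 was the threshold for a call. Differences understate changes of low genes. The code was tested on simulated data. The rule for naming took all 10 members (those not tested in a comparison are left out there), and of each other list the 3 called genes with the largest difference and a mean of at least 5 FPKM in the higher group, in 3 comparisons of stroma; 1 gene so chosen is not reported here. The members and lists were chosen with earlier results of these data known. Alternatives were a pseudocount of 0.1, no filter, trimmed-mean and quantile scaling, group weights, a replicate block, only the compared groups, and leaving out single libraries or those with Xist. Promoters came from the RefSeq table (GRCm38.p6) and figures from matplotlib 3.10.9.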

Additional observations from a re-analysis of the deposited data

Results flagged for a closer look

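The difference between in vivo and culture was unlike in stroma and endothelium for 7 members, by limma's interaction term (stroma minus endothelium, on the log2 scale): -7.26 for Tpm2, -5.03 for Tagln, -4.30 for Acta2, -2.84 for Myl9, -2.31 for Lmod1, -1.17 for Myh11 and 1.84 for Des. Des and Lmod1 were listed at 0 in cultured endothelium, so their values depend on the pseudocount: with 0.1, Des gave 0.18 (adjusted p = 0.94). Myh11 lost its call with that pseudocount (adjusted p = 0.143) and with group weights (0.107), and Lmod1 in 10 of 19 alternatives. The interaction of HSPC minus alone passed for 4 members: -2.17 for Tagln, -2.06 for Myl9, -1.99 for Acta2 and -1.43 for Lmod1. Of these, Myl9 and Lmod1 were listed at 0 in endothelium with and without HSPC, so their values only restate the stroma difference. Acta2 was below 0.5 FPKM there, and its interaction did not pass with a pseudocount of 0.1 (-1.05, adjusted p = 0.195). Tagln alone had a measurable level in both cell types.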

How the results depend on the processing

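The number of members called stayed within 1.5 times its value in 181 of 186 recomputed counts. In the culture interaction 7 became 4 when the libraries with Xist were left out, a setting that leaves 1 library of cultured endothelium, assumed to vary like the other groups, and 2 of cultured stroma, and 4 to 7 without single libraries. In stroma alone minus culture 3 became 3 to 5 and in endothelium alone minus culture 2 became 2 to 4 without single libraries, and the latter became 1 without those that carry Xist. Of the single member values 1207 kept direction and call, 29 gained and 39 lost a call, and 29 changed sign. The sign changes were these. Lmod1 in stroma in vivo minus culture gave 0.09 with a pseudocount of 0.1, 0.18 under trimmed-mean scaling, 0.67 without the libraries that carry Xist, and -0.66 to 0.67 without single libraries. Lmod1 gave -0.11 in stroma in vivo minus alone and 0.42 in endothelium minus stroma in vivo under quantile normalization, and in stroma alone minus culture 0.00 without the libraries that carry Xist and -1.33 to 0.00 without single libraries. Acta2 in endothelium in vivo minus culture gave 0.95 without the libraries that carry Xist. Actg2 in the culture interaction gave 1.00 with a pseudocount of 0.1 and -1.22 to 0.44 without single libraries. Tagln in endothelium with HSPC minus alone gave -0.01 under quantile normalization. Without single libraries, Tagln in stroma in vivo minus alone ran from -0.04 to 0.42, Tpm2 from -0.16 to 0.13 in stroma with HSPC minus alone and in the HSPC interaction, Cnn1 from -1.13 to 0.26 in the culture interaction, from -1.03 to 0.36 between the cell types in culture and from -0.28 to 0.37 in vivo, and Myh11 from -0.11 to 0.16 between the cell types in culture. Mkl2 in stroma with HSPC minus alone gave 0.01 under trimmed-mean scaling, 0.03 under quantile normalization and -0.05 to 0.02 without single libraries. The cause was not tested. Genes called between cell types in culture fell from 5765 to 3546 with group weights and 2801 with only the compared groups; alone minus culture gave 3070 to 3152 instead of 4760 in stroma without a library kept alone, and 1593 to 1671 instead of 3267 in endothelium. The share of higher calls moved from 37.8% to 55.5% (trimmed mean) and 52.2% (quantile) in endothelium alone minus culture, and from 58.2% to 45.5% (quantile) in endothelium with HSPC minus alone. Same-numbered replicates did not deviate together (correlations -0.17 to 0.13). With the replicate block 6 members passed in stroma in vivo minus culture (Myl9 added, adjusted p = 0.0395) and 5 between the cell types in culture (Des lost, adjusted p = 0.0579), and the block changed no other count of members. Depth is unknown and limits the members near 0, Cnn1, Actg2 and Myocd.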
